A study of Mus musculus with 8 samples.

Results

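Of the 36615 H3K27ac regions on mouse chromosomes 1 to 19, 4878 lay alone, with no other such region within 10 kb of either edge. These solitary regions were 13.3% of all (95% Wilson interval 13.0 to 13.7%). A region here is a stretch where peaks of both H3K27ac libraries shared at least 1 bp and were merged, called a consensus region. Of the solitary regions, 291 overlapped a SOX10 consensus site, built in the same way from both SOX10 libraries, and 4587 did not. The members were therefore chosen by measured values, the positions of the H3K27ac and SOX10 peaks, and the spacing that defines them is a description. Coordinates refer to mm9. The lists hold positions without gene names and no annotation of mm9 was used, so regions are named by position, and the identity of the cells was not checked against marker genes.

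H3K27ac, histone H3 acetylated at lysine 27, is put on nucleosomes beside active promoters and enhancers by the acetyltransferases p300 and CBP. Active elements often come in runs, as in super-enhancers, where many acetylated stretches lie close together around genes of cell identity, but a single enhancer or promoter can also stand alone. SOX10 is a transcription factor of the SOXE group that binds DNA through its HMG box and is needed for neural crest cells to become and remain melanocytes. H3K27me3, the trimethylated form of the same lysine, is the work of the Polycomb enzymes EZH1 and EZH2 and is found over silenced genes, and 1 lysine cannot carry both modifications at once.

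All libraries came from 1 immortal mouse melanocyte line, melan-Ink4a-Arf-1, which the labels also call melan-a, derived from embryonic skin of Cdkn2a tm1RDp/tm1RDp mice. The cells grew with the phorbol ester TPA (200 nM) and cholera toxin (200 pM) and were not otherwise treated, and these conditions are shared by every library. Chromatin immunoprecipitation sequencing was done with antibodies to SOX10, H3K27ac and H3K27me3, each in 2 independent experiments, and the authors called peaks in each library against a control, which for the histone marks was 1 shared input without antibody. After removal of duplicates 45583056 and 44416913 tags were left in H3K27ac replicates 1 and 2. SOX10, the shallowest, kept 6440395 and 8985699 tags, and H3K27me3 kept 67060647 and 71987481. Intervals cover counting error only, since regions of 1 library share their source, and no test was made over regions or between 2 libraries and 2.

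Most solitary regions had further H3K27ac peaks nearby that only 1 library called or that did not overlap between the libraries. In 3468 of the 4878 solitary regions, 71.1% (69.8 to 72.3%), at least 1 H3K27ac peak that did not become a consensus region lay within 10 kb. Such peaks came from both libraries at 1473 regions, only from replicate 1 at 707 and only from replicate 2 at 1288. No further peak of either library was called around the remaining 1410 regions, 28.9% of the solitary ones (27.7 to 30.2%). With and without SOX10 the intervals overlapped: 73.2% (67.8 to 78.0%) of those with SOX10 had such a peak, and 70.96% (69.6 to 72.3%) of those without.

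The distance from a solitary region to its nearest neighbour had a median of 37461 bp with SOX10 (quartiles 18945.5 and 83433 bp) and 33315 bp without (17648.5 and 72878 bp). More than 100 kb separated 63 of the 291 regions with SOX10 from their nearest neighbour, 21.6% (17.3 to 26.7%), and 799 of the 4587 without, 17.4% (16.3 to 18.5%). The intervals overlap. Around the 10 kb limit, 180 regions had their neighbour at 10 to 11 kb and 206 at 9 to 10 kb. The first group had a median width of 498.5 bp and median H3K27ac folds of 7.91 and 8.11 in replicates 1 and 2. SOX10 overlapped 13 of its regions, 7.22% (4.27 to 12.0%). In the second the width was 483 bp, the folds were 8.16 and 8.45, and 11 regions, 5.34% (3.01 to 9.31%), overlapped SOX10. The intervals of both groups overlap, and the share over all H3K27ac regions was 9.67%. The members closest to the limit lay on chromosome 15 at 76199282 to 76200150, with 10001 bp to the neighbour, and on chromosomes 11 and 7 at 87963545 to 87963736 and 29651333 to 29652412, both with 10006 bp. Closest on the outer side was a pair on chromosome 16, at 20610537 to 20610883 and 20620867 to 20621269, which lay 9983 bp apart, and the region on chromosome 3 at 84125372 to 84125854, with 9980 bp.

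Solitary H3K27ac regions carried SOX10 less often than the other H3K27ac regions did. SOX10 consensus sites overlapped 291 of 4878 solitary regions, 5.97% (5.33 to 6.67%), and 3249 of the 31737 other regions, 10.2% (9.91 to 10.6%). Over all H3K27ac regions of these chromosomes the share was 9.67%. The difference of -4.27 percentage points was found in the same direction when each H3K27ac list was paired with each SOX10 list, with -3.41, -2.68, -2.63 and -2.69 points (SD 0.371 over 4 pairs, which share libraries). The share counts regions, and a SOX10 site can touch several regions that lie close together: the 291 solitary regions held 291 sites, 1 each, while the 3249 other regions shared 1921 sites. Counted as separate sites per Mb of acetylated sequence the order turned, with 92.0 at solitary regions and 85.9 at the other regions.

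Over the H3K27ac consensus regions, the size of the gap differed between the SOX10 libraries. SOX10 peaks of replicate 1 overlapped 368 solitary regions, 7.54% (6.84 to 8.32%), and 11.6% (11.3 to 12.0%) of the others. The peaks of replicate 2, which had more kept tags, overlapped 747 solitary regions, 15.3% (14.3 to 16.4%), and 17.3% (16.9 to 17.7%) of the others. The gap was thus -4.09 points in replicate 1 and -1.98 points in replicate 2. With single H3K27ac lists the gap differed less between SOX10 replicates 1 and 2. It was -3.41 and -2.68 points with H3K27ac list 1, and -2.63 and -2.69 points with list 2. A SOX10 peak that did not become a consensus site lay at 579 solitary regions, 11.9% (10.99 to 12.8%), and at 9.98% (9.65 to 10.3%) of the others. Counted by regions, a smaller share of solitary than of other regions thus overlapped a SOX10 consensus site, and a larger share only a SOX10 peak outside the consensus.

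SOX10 close to a solitary region but outside it was uncommon. A SOX10 site lay within 1 kb, without overlap, at 108 solitary regions, 2.21% (1.84 to 2.67%), and at 5.71% (5.46 to 5.97%) of the others. Of the others, 76.7% had an H3K27ac neighbour within 1 kb, and a site on that neighbour counts too. The rule excludes such a neighbour for solitary regions. Counting overlaps too, 8.18% of solitary regions (7.44 to 8.98%) had a SOX10 site within 1 kb, against 15.9% of the others (15.5 to 16.4%) and 14.9% over all H3K27ac regions. Within 10 kb it was 11.1% (10.3 to 12.0%) of solitary regions and 36.5% (35.9 to 37.0%) of the others, where a site on a close neighbour counts too. Of the 542 solitary regions with a SOX10 site within 10 kb, 291 were those that the site itself overlapped.

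The share with SOX10 did not fall steadily as H3K27ac regions became more isolated. It was 12.4% (11.9 to 12.8%) where the nearest other region lay within 0.5 kb, 10.1% (9.24 to 10.97%) at 0.5 to 1 kb and 5.74% (4.99 to 6.60%) at 1 to 2 kb. The lowest share, 3.62% (2.97 to 4.40%), was found at 2 to 5 kb, and 4.09% (3.21 to 5.19%) at 5 to 10 kb. Among solitary regions it was 5.19% (4.17 to 6.45%) at 10 to 20 kb, 6.08% (5.03 to 7.34%) at 20 to 50 kb, 5.73% (4.39 to 7.43%) at 50 to 100 kb and 7.31% (5.75 to 9.24%) beyond 100 kb. Both SOX10 libraries gave this shape. In replicate 1 the share was 14.1% within 0.5 kb, 4.48% at 2 to 5 kb and 9.40% beyond 100 kb, and in replicate 2 it was 20.6%, 8.52% and 19.03%.

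**Figure D1:**
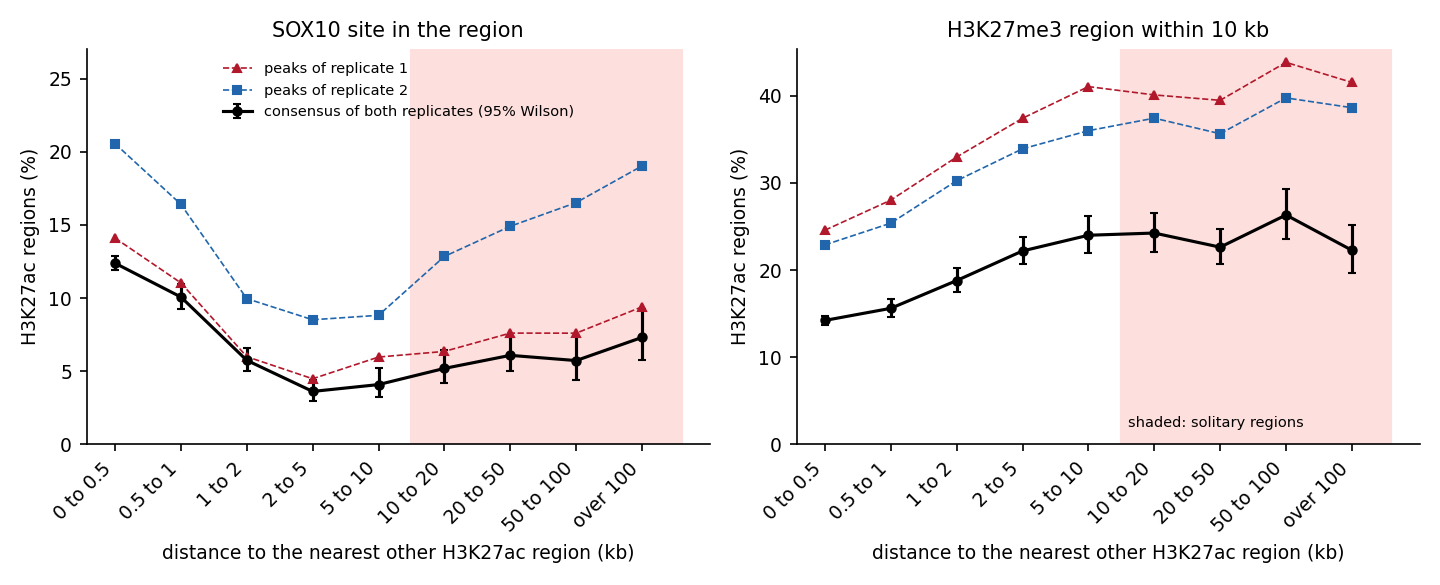
H3K27ac consensus regions on chromosomes 1 to 19 grouped by the distance to their nearest other H3K27ac region in kb, with the percentage that overlapped SOX10 (left) and that had H3K27me3 within 10 kb (right). Black points with 95% Wilson bars use consensus lists and coloured points the peaks of 1 library, and shading marks the solitary regions; the SOX10 share is lowest at 2 to 5 kb (3.62%) and 7.31% beyond 100 kb, while the H3K27me3 share climbs until about 5 to 10 kb (24.0%) and then stays between 22.3% and 26.3%.

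The direction of the comparison depended on which other regions were taken. Of the other regions, 24338, or 76.7%, had their neighbour within 1 kb, and 11.9% of these (11.5 to 12.4%) overlapped SOX10. The 7399 other regions with their neighbour at 1 to 10 kb overlapped SOX10 less often than solitary regions did, 4.64% (4.18 to 5.14%). Set against these alone, an alternative chosen after seeing the data, solitary regions stood 1.33 percentage points higher. By SOX10 library, solitary regions had 7.54% in replicate 1 and 15.3% in replicate 2, and the regions at 1 to 10 kb 5.45% and 9.20%. The regions at 1 to 10 kb were narrower, with a median of 467 bp against 543 bp for solitary ones. Weighted to the widths of the solitary regions their share was 5.25%, against 5.97% (5.33 to 6.67%) of solitary regions. No interval was computed for the weighted share, so whether the 2 differ beyond counting error cannot be said. In SOX10 replicates 1 and 2 the weighted share was 6.15% and 10.5%.

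Wide and strongly acetylated regions carried SOX10 more often when they had close neighbours, while the increase was smaller among those that stood alone. Among regions of 251 to 500 bp, SOX10 overlapped 4.84% (3.96 to 5.91%) of solitary and 6.26% (5.84 to 6.70%) of other regions. At 751 to 1000 bp the shares were 6.53% (4.89 to 8.69%) and 12.8% (11.8 to 13.9%), and at 1501 to 2000 bp 6.67% (3.66 to 11.8%) and 21.1% (18.8 to 23.5%). Up to 250 bp the order was turned, with 12 of 267 solitary regions, 4.49% (2.59 to 7.69%), and 64 of 1778 others (2.83 to 4.57%), but the intervals overlap. Only 51 solitary regions were wider than 2000 bp, and 8 of them, 15.7% (8.17 to 28.0%), overlapped SOX10, against 26.3% (23.6 to 29.2%) of such other regions. Weighting the other regions to the widths of the solitary ones left a gap of -3.84 points.

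By the authors' H3K27ac fold enrichment, the tags at the summit over the input background, the share with SOX10 was nearly flat among solitary regions. In quintiles of all H3K27ac regions by mean log2 fold over both libraries, from lowest to highest, it was 5.23%, 5.45%, 6.51%, 6.69% and 6.28% in solitary regions. In the other regions it climbed over the same quintiles, with 6.45%, 7.14%, 8.35%, 11.4% and 17.4%. In the highest quintile 45 of 716 solitary regions (4.73 to 8.31%) and 1152 of 6607 other regions (16.5 to 18.4%) overlapped SOX10, so the intervals lie far apart there. In the lowest quintile, with 62 of 1186 solitary (4.10 to 6.65%) and 396 of 6137 other regions (5.86 to 7.10%), they overlap.

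**Figure D2:**
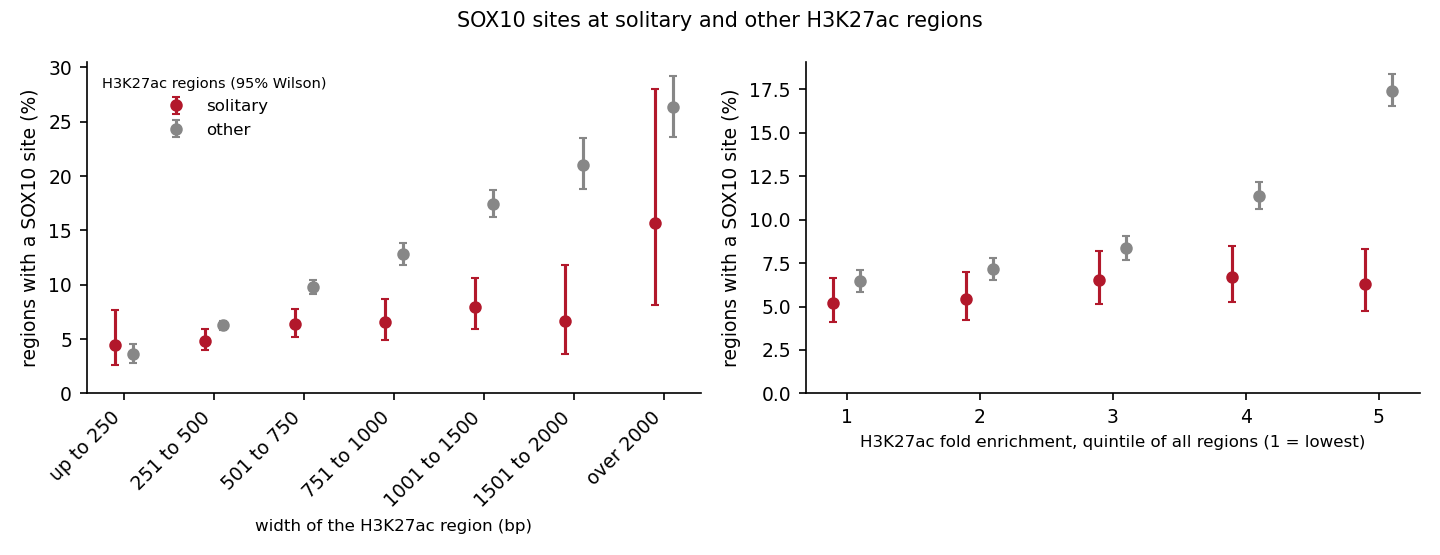
Percentage of H3K27ac regions with a SOX10 site by region width (left, bp) and by quintile of H3K27ac fold enrichment (right), for solitary regions in red and other regions in grey, with 95% Wilson bars. The grey points climb to 26.3% and 17.4% at the right of each panel, and the red points stay between 4.49% and 7.94% except for the 51 widest solitary regions at 15.7%.

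Solitary regions with SOX10 had slightly higher H3K27ac folds than those without. The median fold enrichment was 8.49 in replicate 1 and 8.57 in replicate 2 at the 291 regions with SOX10, and 8.10 and 8.32 at the 4587 without. On the log2 scale the mean difference was 0.03 ± 0.00217 (SD, n = 2 replicates), against an SD of 0.30 between regions of each class. Both replicate values used the same consensus regions, the same split by SOX10 and the same input. The SD of 0.00217 therefore does not cover the choice of regions. With other choices the mean difference moved in both directions. It was 0.0787 with the H3K27ac peaks of replicate 2 alone, but 0.0272 with those of replicate 1 alone. With the SOX10 peaks of replicate 2 alone it was 0.0788, and with those of replicate 1 alone 0.0418. Matching SOX10 and H3K27ac summits within 1 kb gave 0.0242. The difference was 0.12 where any H3K27ac peak counted as a neighbour and 0.16 where regions less than 1 kb apart were joined. Among the other regions, those with SOX10 exceeded those without by 0.14 ± 0.00288 (SD, n = 2, again over the same regions). The medians were 9.62 and 9.41 against 8.70 and 8.53. Within bins of width the difference among solitary regions changed sign: it was 0.05 at 251 to 500 bp, -0.02 at 501 to 750 bp, -0.06 at 751 to 1000 bp and 0.05 at 1001 to 1500 bp. Among the other regions its mean over both libraries was positive in each of the 7 bins, between 0.03 and 0.09.

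Solitary regions with SOX10 were slightly wider. Their median width was 607 bp (10th and 90th percentile 316 and 1352 bp), against 539 bp (287 and 1147 bp) without SOX10, a ratio of 1.13. For the peak lengths of each library the ratio was 1.11 in replicate 1 and 1.08 in replicate 2. With the SOX10 summit required within 1 kb of the H3K27ac summit in place of an overlap, which a wide region meets more easily, it was 1.01, and with peaks at p of 1e-10 or less it turned to 0.978. It was 1.25 where any H3K27ac peak counted as a neighbour, 1.24 with a SOX10 peak of either library and 2.26 where regions less than 1 kb apart were joined. The other regions had 753 bp with SOX10 and 531 bp without. A median solitary region with SOX10 held 46 and 55 H3K27ac tags in replicates 1 and 2, and a median one without held 41 and 49. In 198 of the 291 regions with SOX10, 68.0%, each library had called a single peak, and in 76.1% of those without. Across solitary regions the log2 folds of both libraries correlated with r = 0.54 with SOX10 (n = 291) and 0.53 without (n = 4587), a description over regions that share library and input.

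**Figure D3:**
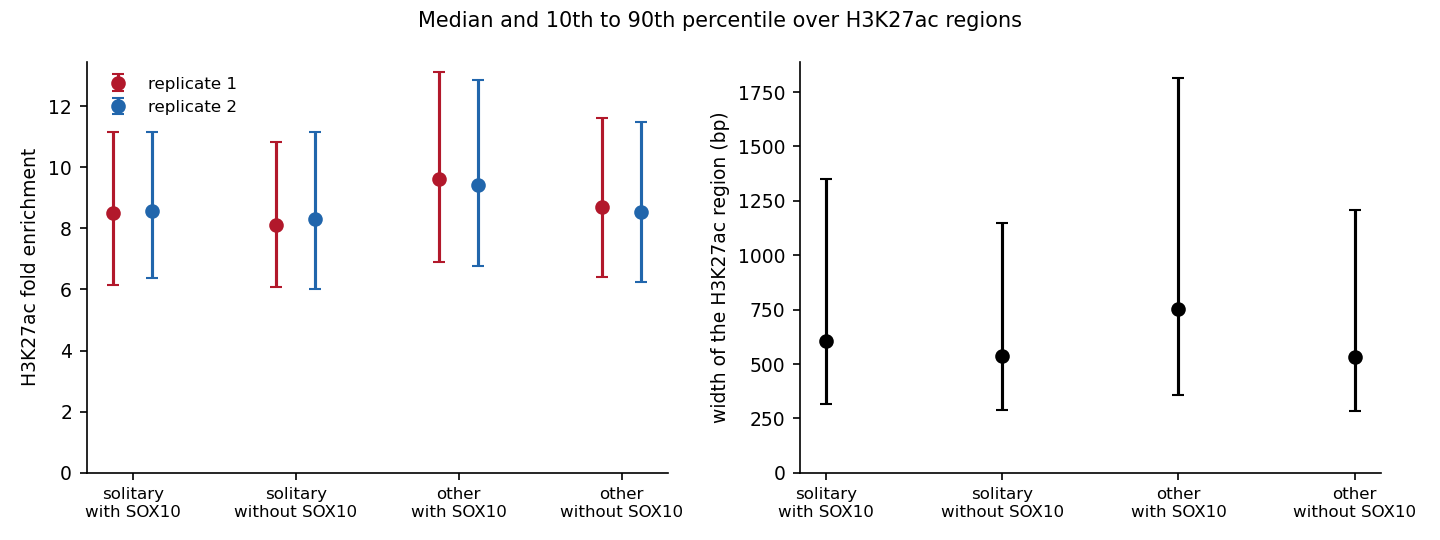
H3K27ac fold enrichment in each replicate (left) and region width in bp (right) for solitary regions with and without SOX10 and other regions with and without SOX10; points are medians and bars run from the 10th to the 90th percentile over regions. The classes overlap almost wholly, and only the other regions with SOX10 have medians above 9 in fold (9.62 and 9.41) and above 700 bp in width (753 bp).

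High H3K27ac folds were rare in solitary regions of either kind, which is given as a description since H3K27ac peaks chose them. A mean fold of at least 12 was reached by 12 of 291 regions with SOX10, 4.12%, and 151 of 4587 without, 3.29%, where other regions reached it in 15.9% with SOX10 and 6.42% without. The solitary region with the highest fold overlapped SOX10 and lay on chromosome 3 at 35123808 to 35124198. Its H3K27ac fold was 14.5 in replicate 1 and 25.7 in replicate 2, from 27 and 65 tags, a spread of 7.93 (SD, n = 2) between the libraries. Its SOX10 folds were 13.35 and 12.66, its nearest H3K27ac neighbour was 658 kb away, and no further H3K27ac peak of either library lay within 10 kb. It was followed by regions on chromosome 19 at 3767307 to 3768795 (14.9 and 12.9), chromosome 18 at 34164130 to 34167169 (16.6 and 11.1), chromosome 10 at 52137395 to 52139877 (14.9 and 12.0) and chromosome 9 at 114597839 to 114599324 (14.2 and 11.1). All 4 held at least 184 tags in each library, and the SD between their folds was 1.41 to 3.87.

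Without SOX10, the highest fold was on chromosome 17 at 44165194 to 44166439, with 18.4 and 18.85 from 221 and 222 tags. The next were on chromosome 10 at 127471892 to 127473861 (13.85 and 18.82), chromosome 15 at 60681536 to 60682291 (21.0 and 12.1), chromosome 10 at 8481266 to 8481989 (16.6 and 14.6) and chromosome 7 at 3596826 to 3598107 (14.8 and 16.3). The fourth of these had 10 further H3K27ac peaks of single libraries within 10 kb and the fifth had none. By mean fold, the 5 regions with SOX10 ranged from 12.7 to 20.1 and the 5 without from 15.5 to 18.6.

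Of the 38 solitary regions more than 1000 kb from any other H3K27ac region, 6 carried SOX10 and 32 did not. SOX10 overlapped 5.97% of all solitary and 9.67% of all H3K27ac regions. The 6 were 2.06% (0.948 to 4.42%) of solitary regions with SOX10, and the 32 were 0.698% (0.495 to 0.983%) of those without. These intervals overlap. With SOX10, the longest distance to a neighbour was 3.71 Mb, on chromosome 12 at 40948362 to 40949840, where the H3K27ac folds were 11.4 and 11.1 and the SOX10 folds 4.01 and 5.02. The next lay on chromosome 7 at 144629501 to 144630007 (1.72 Mb), chromosome 4 at 71807342 to 71807788 (1.61 Mb), chromosome 5 at 42235581 to 42235882 (1.39 Mb) and chromosome 1 at 177555332 to 177555674 (1.18 Mb). Of these, the regions on chromosomes 4 and 5 had high SOX10 folds, 19.02 and 27.1 on chromosome 4 and 17.06 and 20.6 on chromosome 5, over modest H3K27ac folds of 7.69 and 6.54 and of 7.87 and 9.31. Without SOX10, the longest distance was 7.74 Mb, on chromosome 14 at 87815820 to 87816810 with H3K27ac folds of 8 and 12, and the 4 next lay 2.30 to 2.68 Mb from a neighbour.

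With SOX10, the widest lay on chromosome 3 at 68808529 to 68811700 and measured 3172 bp, with H3K27ac folds of 11.03 and 10.1, and the 5 widest ran from 2742 to 3172 bp. Without SOX10, the widest was 3527 bp on chromosome 1 at 90171675 to 90175201. Its folds were only 3.86 and 3.98 from 785 and 776 tags, and it overlapped an H3K27me3 region. The next, on chromosome 1 at 108068847 to 108072102, spanned 3256 bp with folds of 13.1 and 15.4. Regions of at least 2000 bp made up 2.75% of solitary regions with SOX10 and 0.937% of those without, against 7.85% and 2.51% of the other regions.

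SOX10 itself was less enriched at solitary regions. The 291 sites there had a median SOX10 fold of 8.32 in replicate 1 and 8.86 in replicate 2, against 10.2 and 10.6 at the 1921 sites on other H3K27ac regions and 11.9 and 11.9 at the 1902 sites on none. On the log2 scale, sites at solitary regions differed by -0.23 ± 0.0107 from sites at other H3K27ac regions and by -0.40 ± 0.0232 from sites without H3K27ac (SD, n = 2 replicates). Both replicates were read over the same consensus sites, so these SDs do not cover the choice of sites. With peaks at p of 1e-10 or less the first difference was -0.01, and with an FDR of at most 1% it was -0.10. The input background under a site, estimated from the tag count and p of each peak under a Poisson model, had a median of 2.06 and 2.14 times the genome-wide level at solitary regions, 1.90 and 1.96 at other regions and 1.27 and 1.27 at none. Summit height, the fold multiplied by that background, differed on the log2 scale by -0.17 ± 0.0215 between sites at solitary and at other H3K27ac regions, and by 0.23 ± 0.0445 between sites at solitary regions and sites without H3K27ac (SD, n = 2). The part of the background in these folds was not tested. A site at a solitary region held a median of 27 and 42 SOX10 tags, one at other H3K27ac regions 31 and 47, and one at none 19 and 28.

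**Figure D4:**
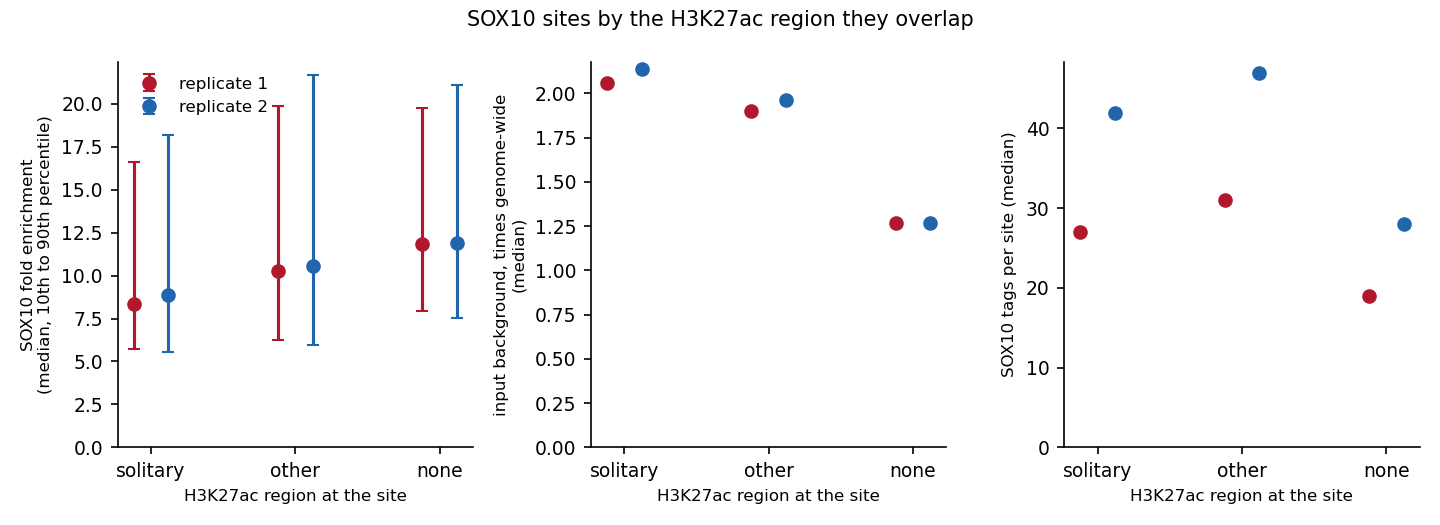
SOX10 sites at solitary H3K27ac regions, at other H3K27ac regions and at none, with the SOX10 fold enrichment (left; medians with 10th to 90th percentile over sites), the median input background in multiples of the genome-wide level (middle) and the median tags per site (right), in replicate 1 (red) and replicate 2 (blue). Sites at solitary regions have the lowest median fold (8.32 and 8.86) and the highest median background (2.06 and 2.14).

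Ranked by SOX10 fold, sites at solitary regions were most frequent in the lowest decile, as were sites at other H3K27ac regions. Of the lowest decile of SOX10 sites 74 of 412 lay at solitary regions, 18.0% (14.6 to 22.0%), and of the second decile 12.4% (9.57 to 15.9%). From decile 5 upward the share stayed between 3.41% and 5.11%, and it was 4.13% (2.59 to 6.51%) in the highest. Sites at other H3K27ac regions made up 65.0% of decile 1, 62.3% of decile 2 and 33.6% to 52.2% from decile 5 upward. Sites at none made up 17.0% of decile 1, 25.3% of decile 2 and 43.7% to 63.0% from decile 5 upward. Few SOX10 sites at solitary regions had companions: 8 of 291, 2.75% (1.399 to 5.33%), had another SOX10 site within 10 kb, against 21.9% (20.1 to 23.8%) at other H3K27ac regions and 11.1% (9.76 to 12.6%) at none. The rule bars another H3K27ac consensus region within 10 kb of a solitary one. A companion on such a region was thus largely excluded beforehand at solitary regions, but not in the other 2 groups, so the low share is a description. Across pairs of a SOX10 site and a region, SOX10 and H3K27ac folds on the log2 scale were nearly unrelated, with r = -0.06 (Spearman rho = -0.11) for 291 solitary pairs and r = -0.003 (rho = -0.01) for 3276 others.

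The site with the highest SOX10 fold of all lay at a solitary region. On chromosome 2 at 29362331 to 29362548, a region of 218 bp with H3K27ac folds of 7.50 and 8.53 from 15 and 19 tags overlapped a SOX10 site with folds of 68.4 and 68.2. Its nearest H3K27ac neighbour was 17.8 kb away and no further H3K27ac peak lay within 10 kb. Among sites at solitary regions, the next by SOX10 fold lay on chromosome 10 at 67999156 to 67999698 (SOX10 folds 36.9 and 39.1), chromosome 10 at 121401031 to 121401282 (27.3 and 36.2), chromosome 8 at 27867526 to 27867992 (30.3 and 31.1) and chromosome 1 at 122254553 to 122255708 (27.7 and 25.7). Their H3K27ac folds were ordinary, between 6.12 and 11.4. In each of the 5 the SOX10 summit lay outside the H3K27ac region, by 123 to 467 bp.

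Counted by pairs of a site and a region, the SOX10 summit lay inside the acetylated stretch more often at solitary than at other regions. It was inside at 86 of 291 pairs of a site and a region, 29.6% (24.6 to 35.0%), against 583 of 3276 pairs at other regions, 17.8% (16.5 to 19.1%). The 3276 pairs came from 1921 sites, since a site between close neighbours can touch more than 1 region, which cannot occur at solitary ones. Regions do not overlap each other, so a summit lies inside 1 region at most, and further pairs of its site add only to those outside. Counted by sites, the summit was inside at 86 of 291 sites at solitary and 583 of 1921 at other regions, without the order seen by pairs. Where it was outside, the median distance to the edge was 259 bp in both groups, and the 90th percentile was 572 bp at solitary and 735 bp at other regions. The summits of SOX10 and H3K27ac were 462 bp apart at solitary regions and 606.5 bp at others, by the median over pairs.

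Where the summit lay outside a solitary region, the rule allowed no second consensus region on its far side, so what follows describes peaks of single libraries only. At 112 of these 205 regions, 54.6% (47.8 to 61.3%), no H3K27ac peak of either library lay within 1 kb on the other side of the summit. At 39 a peak of replicate 1 alone lay there, at 45 a peak of replicate 2 alone, and at 9 peaks of both that did not overlap each other. These peaks beyond SOX10 did not enter the consensus.

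**Figure D5:**
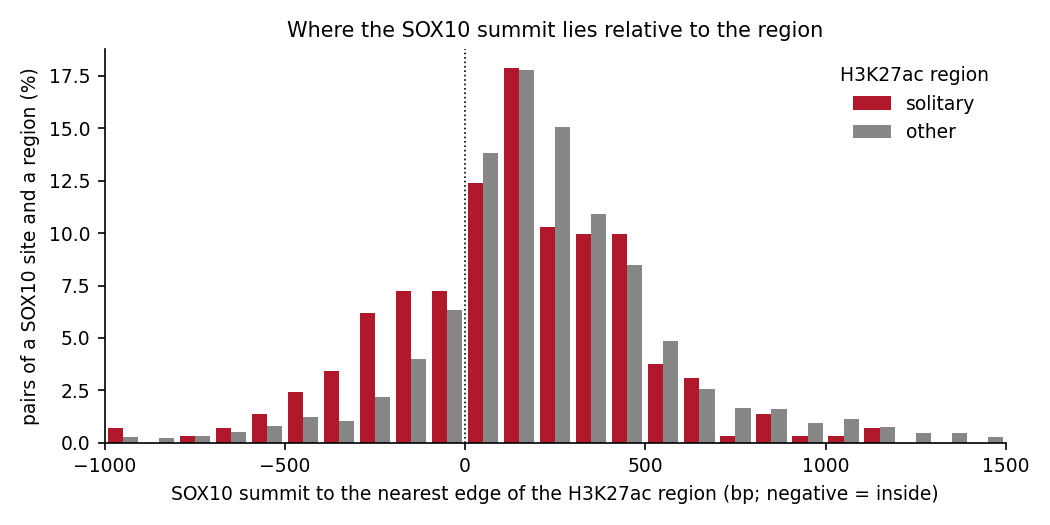
Distance in bp from the SOX10 summit to the nearest edge of the H3K27ac region it overlaps, negative inside the region, in bins of 100 bp for 291 pairs at solitary regions (red) and 3276 pairs at other regions (grey). Both peak at 100 to 200 bp outside the edge (17.9% and 17.8%), and the red bars are taller inside the region.

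Solitary regions lay near H3K27me3 more often than the pooled other H3K27ac regions, both among those with SOX10 and among those without, while the interval overlapped that of other regions with a neighbour at 2 to 5 or 5 to 10 kb. H3K27me3 consensus regions lay within 10 kb of 1158 solitary regions, 23.7% (22.6 to 24.95%), and of 16.0% of the others (15.6 to 16.4%), against 17.1% over all. The other regions with their neighbour at 2 to 5 kb had 22.2% (20.7 to 23.8%) and those at 5 to 10 kb 24.0% (21.9 to 26.2%), where the 4 distance bins of solitary regions had 22.3 to 26.3%. With SOX10 it was 20.96% (16.7 to 26.0%) of solitary and 13.6% (12.5 to 14.8%) of other regions, and without SOX10 23.9% (22.7 to 25.2%) and 16.3% (15.9 to 16.7%). In replicate 1 alone the shares were 40.8% and 27.8%, and in replicate 2 alone 37.5% and 25.6%. Without chromosome 6, where the share was highest, they were 21.5% (20.4 to 22.8%) and 13.1% (12.7 to 13.5%). Within 50 kb the intervals overlapped, with 54.8% (53.4 to 56.2%) of solitary and 55.1% (54.5 to 55.6%) of other regions.

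Between solitary regions with SOX10 and those without, the share with H3K27me3 within 10 kb differed by -2.95 percentage points, with overlapping intervals. The difference was -7.61 with peaks of H3K27me3 replicate 1 alone and -4.04 with those of replicate 2 alone (SD 2.53). It turned to 1.09 with H3K27ac and SOX10 peaks at p of 1e-10 or less and the H3K27me3 list unchanged. That choice left 98 solitary regions with SOX10, and the shares were 23.5% with SOX10 and 22.4% without. At the other distances the share was also lower with SOX10. Within 1 kb it was 2.41% (1.17 to 4.88%) with SOX10 and 5.52% (4.89 to 6.21%) without, and within 5 kb 8.59% (5.89 to 12.4%) and 14.6% (13.6 to 15.7%). Within 50 kb it was 45.7% (40.1 to 51.4%) with SOX10 and 55.4% (53.9 to 56.8%) without. Direct overlap was found at 1 of 291 solitary regions with SOX10, 0.344% (0.0607 to 1.92%), and 158 of 4587 without, 3.44% (2.95 to 4.01%), against 1.94% of all H3K27ac regions. The 1 region with all of SOX10, H3K27ac and H3K27me3, singled out after its values were seen, lay on chromosome 7 at 150511649 to 150512528. It had H3K27ac folds of 9.62 and 7.00 and SOX10 folds of 23.8 and 26.2, with the SOX10 summit 500 bp outside the H3K27ac region.

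Solitary regions were found on each of the 19 chromosomes. They made up between 10.99% of the H3K27ac regions of chromosome 11 and 19.4% of those of chromosome 16, with a median of 13.3% over chromosomes. The share of solitary regions with SOX10 ranged from 1.85% on chromosome 16, 4 of 216, to 9.27% on chromosome 18, 14 of 151, with a median of 5.66%. Chromosome 16 thus had the largest share of solitary regions and the smallest share of SOX10 among them. The share with H3K27me3 within 10 kb was 58.7% on chromosome 6, 169 of 288, and between 16.6% and 26.6% on the other 18.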

How the data were processed

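Per the file headers, the authors called peaks in each of 6 ChIP libraries with MACS 1.4.2 at p 1e-05 against an input, keeping at most 1 tag per position. Coordinates are mm9 (build per the submitters' processing notes); sources used here give no aligner. Local background was turned off for H3K27me3 only. The H3K27ac lists used a tag distance of 50 and 51 bp, about the tag size of 51 bp, so acetylated stretches can be split into several peaks. Each deposited peak has a tag count, a -log10 p (deposited as 10 times that value), a fold enrichment, the authors' ratio of tags to background, and, by the authors, an FDR in percent. Columns were read by position, as 1 column title was damaged.

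Peaks were merged with Python 3.11.15, numpy 2.4.6 and pandas 2.3.3. A region's fold in a library is the highest of its peaks there, its tags are their sum, and its summit is that of the peak with the highest fold in either library. Named regions were the 5 highest in H3K27ac fold, isolation and width with and without SOX10, the 5 highest in SOX10 fold, and the 3 nearest the limit on each side. Members and lists were chosen with earlier results of these data known. The interval functions were tested on simulated data. Settings varied were the distance, the peak thresholds, the overlap, and each library left out. No gene, motif or sequence is given, since the genome tables at hand are of another build.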

Additional observations from a re-analysis of the deposited data

Results flagged for a closer look

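Chromosome X lay outside the rule and was not compared. It held only 29 H3K27ac consensus regions, 19 of which had no other within 10 kb. None of the 19 overlapped a SOX10 consensus site, which allows a share of up to 15.8% by a limit of 3 counts (the 95% Wilson upper bound is 16.8%), and their median H3K27ac folds were 8.74 and 7.71 in replicates 1 and 2. With 2 libraries per antibody, no group was large enough to test a single library against the rest.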

How the results depend on the processing

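No paired analysis was possible because the results come from peak lists with no test across libraries, and the smallest p of 2 libraries against 2 is 0.333. For the 6 shares, differences and ratios, 31 of 89 alternative values moved by less than the spread between replicates, 55 moved more and 3 changed direction. For the H3K27ac and SOX10 fold differences and the width ratio, that spread compares libraries over the same regions or sites. It does not cover changes in the regions, which most alternatives make. The number of solitary regions, which has no such spread, stayed within 1.5 times 4878 under 8 of 9 alternatives (3414 to 7080). The causes were not tested.

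With any H3K27ac peak of either library counted as a neighbour, 1410 regions were solitary, the log2 H3K27ac difference with minus without SOX10 was 0.12, the width ratio 1.25, the H3K27me3 difference -7.20 points and the log2 SOX10 difference -0.34. At 5 kb the solitary minus other share with SOX10 was -5.04 points, the log2 H3K27ac difference 0.0473, the width ratio 1.17 and the SOX10 difference -0.21; at 20 kb these were -3.72, 0.0386, 1.08 and -0.22. The peak thresholds were applied to the H3K27ac and SOX10 lists, not to H3K27me3. With peaks at p of 1e-10 or less, 2.35% of solitary regions had SOX10 and the SOX10 difference was -0.0137. The width ratio (0.978) and H3K27me3 difference (1.09) changed direction. With an FDR of at most 1%, 1.71% had SOX10, against other regions -2.08 points, with 0.0367 for H3K27ac, 1.16 for width and -0.10 for SOX10. Joining regions less than 1 kb apart gave 9.52%, -2.07 points, 0.16 and 2.26. Sharing 50% of the shorter interval gave -1.62 points, 0.0444 for H3K27ac and -0.24 for SOX10. Matching summits within 1 kb gave -3.03 points, 0.0242, 1.01 and -0.19. A SOX10 peak of either library gave 17.8%, -2.38 points, 0.0778, 1.24, -6.09 and -0.20.

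Chosen after seeing the data, other regions at 1 to 10 kb gave 1.33 points, a change of direction, and -0.30 for SOX10, and weighting by width gave -3.84 points. Leaving out 1 library, the number solitary was 4833 to 5046, the share with SOX10 3.43 to 15.3%, its difference -4.09 to -1.98 points, the log2 H3K27ac difference 0.0272 to 0.0788, the width ratio 1.13 to 1.23, the H3K27me3 difference -9.13 to -2.69 points and the SOX10 difference -0.22 to -0.16. The highest share with SOX10 was without SOX10 replicate 1, and the -9.13 without H3K27ac replicate 1. Sites missed in the shallower SOX10 libraries cannot be told from sites that are absent.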
